A study of Mus musculus with 6 samples.

Results

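The Ms4a family of membrane proteins was followed through 6 of its genes, Ms4a4b, Ms4a4c, Ms4a6b, Ms4a6c, Ms4a6d and Ms4a7, in sorted bone marrow cells of old and young mice. They were measured with 8 probes, 3 of them for Ms4a4c and 1 for each other gene, out of 55681 probes for 37163 genes or transcripts on the array. A probe was taken when the transcript named for it in the scanner files was a RefSeq transcript of one of the genes. The genes had been picked because most of them were lower in old samples, so their differences between old and young are described here without a test.

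The study compared cells of C57BL/6 mice aged 24 months (old, n = 3) with cells of C57BL/6 mice aged 3 months (young, n = 3), all untreated as far as the labels tell. The labels call the cells mesenchymal stem cells of bone marrow and say that marrow cells were labelled and sorted, without naming the markers of the sort. Whether the 3 samples of each age were taken from different animals is not stated, so the p-values measure only the spread between these samples, which may be technical. Total RNA was hybridised to 6 Agilent 1-colour arrays on 1 slide, the old samples in slide row 2 and the young samples in slide row 1, so the slide row and the age of the mice cannot be told apart. Values are log2 signals minus the 75th percentile of the same array, where 0 stands for that percentile. The old arrays were dimmer, with 51.0 to 53.4% of probes well above background against 55.3 to 60.0% on the young arrays.

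Ms4a proteins cross the cell membrane 4 times and act mainly as partners of other receptors, whose signalling or position in the membrane they alter. Different blood lineages use different members: Ms4a1 is CD20 of B cells, Ms4a2 is the beta chain of the IgE receptor of mast cells and basophils, and Ms4a3 marks granulocyte and monocyte precursors. In mice, Ms4a4c, Ms4a6c, Ms4a6d and Ms4a7 are known from monocytes and macrophages. Ms4a4b and its relative Ms4a6b are known above all from T cells, where Ms4a4b was found with the receptor GITR, so a myeloid label does not cover what is known of these 2 genes.

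The 6 genes lie in 1 cluster of Ms4a genes on chromosome 19, in the order Ms4a7, Ms4a4c, Ms4a4b, Ms4a6c, Ms4a6b and Ms4a6d, with Ms4a4a between Ms4a7 and Ms4a4c and Ms4a4d between Ms4a6b and Ms4a6d. The RefSeq promoter table (assembly GRCm38.p6) held a window for 5 of the 6 genes. The 250 bases before the start of 4 of them are shown because neighbours in the cluster share long stretches there. All 4 are on the plus strand, at chr19:11443308-11443557 for Ms4a4b, chr19:11407411-11407660 for Ms4a4c, chr19:11518309-11518558 for Ms4a6b and chr19:11469118-11469367 for Ms4a6c. Capitals mark the longest run that a pair has in common.
Ms4a4b: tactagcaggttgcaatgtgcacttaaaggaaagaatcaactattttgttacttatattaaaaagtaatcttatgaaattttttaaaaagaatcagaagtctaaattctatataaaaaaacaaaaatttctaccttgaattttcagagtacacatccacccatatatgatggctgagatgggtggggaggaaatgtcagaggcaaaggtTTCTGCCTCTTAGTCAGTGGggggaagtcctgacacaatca
Ms4a4c: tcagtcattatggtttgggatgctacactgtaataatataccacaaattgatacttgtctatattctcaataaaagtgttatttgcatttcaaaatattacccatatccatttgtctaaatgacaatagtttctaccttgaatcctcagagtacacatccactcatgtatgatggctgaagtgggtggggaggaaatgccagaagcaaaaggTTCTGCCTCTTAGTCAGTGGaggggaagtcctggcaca
Ms4a6b: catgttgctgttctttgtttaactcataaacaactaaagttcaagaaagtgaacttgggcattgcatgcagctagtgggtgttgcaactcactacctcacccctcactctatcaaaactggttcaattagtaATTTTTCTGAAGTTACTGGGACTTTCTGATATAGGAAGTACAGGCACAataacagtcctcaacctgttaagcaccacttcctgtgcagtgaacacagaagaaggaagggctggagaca
Ms4a6c: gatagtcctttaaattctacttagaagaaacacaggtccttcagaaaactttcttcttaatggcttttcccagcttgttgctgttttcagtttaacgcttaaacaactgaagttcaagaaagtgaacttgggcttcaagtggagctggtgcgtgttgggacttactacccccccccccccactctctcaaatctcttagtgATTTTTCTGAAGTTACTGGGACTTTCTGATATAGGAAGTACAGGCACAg

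Ms4a6b and Ms4a6c had an identical run of 48 bases, which began 118 bases before the Ms4a6b start and 49 bases before the Ms4a6c start. When the 2 windows were aligned they were identical at 149 of 175 aligned bases (85.1%), and 150 bases lay opposite gaps. Ms4a4b and Ms4a4c shared a run of 20 bases, beginning 41 and 38 bases before their starts. They were identical at 183 of 232 aligned bases (78.9%), with 36 bases opposite gaps. Neither run stood in the window of any other gene. In every other pair of the 6 windows, which include 2 starts of Ms4a7, the longest common run was 7 to 9 bases. The same alignment gave those pairs 58.4 to 65.6% identity over their aligned bases.

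A set of 3 short motifs was looked for on both strands, all chosen after the windows had been seen. The ETS core GGAAGT, read by PU.1 and related factors of myeloid cells, stood in 5 of the 6 windows, against 19.7% of the 32851 windows of the table. In the Ms4a6b and Ms4a6c windows one copy lies inside the shared run of 48 bases, and in the Ms4a4b and Ms4a4c windows the copy lies just after the capitals, 19 and 15 bases before the start. The second Ms4a7 start had it on the opposite strand, 15 bases before the start. The interferon response core GAAANNGAA stood in 4 of the 6 windows (7.13% of all windows), those of Ms4a6b, Ms4a6c and both Ms4a7 starts. With a further A at its end, as the consensus is often written, it stood in 0 of 6 (2.98%). The C/EBP-type motif TTGCNNAA stood in 0 of 6 (9.56%). These matches describe letters only.

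**Figure D1:**
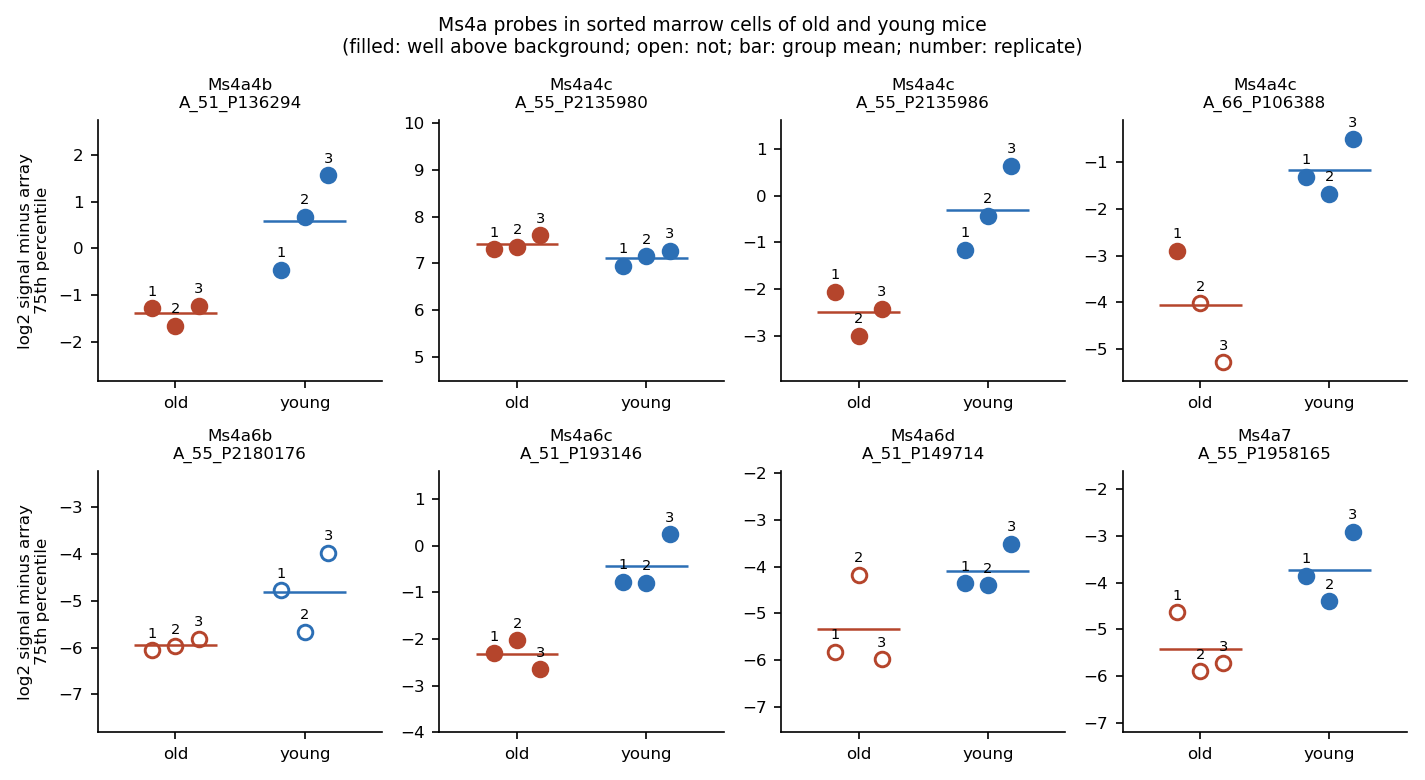
Log2 signal minus the array's 75th percentile for each of the 8 Ms4a probes, with the 3 old samples to the left of the 3 young samples. Each panel spans the same number of log2 units around its own middle. Filled points were well above background, open points were not, bars are group means and numbers are replicate numbers. In 6 panels the probe has every old sample below every young sample, the Ms4a4c probe A_55_P2135980 has every old sample above, and the Ms4a6d groups overlap.

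Ms4a4b (NM_021718), a partner of GITR that restrains the proliferation of mouse T cells, had -1.28, -1.66 and -1.23 in old samples, against -0.46, 0.68 and 1.56 in young samples. Every old sample lay below every young sample, and the young samples were spread over about 2 log2 units while the old ones lay close together. The mean was -1.39 ± 0.24 in old samples and 0.60 ± 1.01 in young samples (SD, n = 3 each). The difference of -1.98 ± 0.60 (SE from the replicate SDs) is 3.95-fold lower in old samples. Signal was well above background on all 6 arrays.

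Ms4a4c (NM_029499), a close relative of Ms4a4b known from mouse monocytes, was read by 3 probes that did not move together. Probe A_55_P2135986 had -2.06, -3.0 and -2.42 in old samples, against -1.16, -0.43 and 0.64 in young samples, with signal well above background on each of the 6 arrays. Its difference was -2.18 ± 0.59 (SE), or 4.52-fold lower in old samples, with no overlap between the groups. Probe A_66_P106388 had -2.89, -4.01 and -5.28 in old samples, against -1.31, -1.67 and -0.50 in young samples. Old 1 was the highest of the old samples and the only one of them well above background for this probe. All 3 young samples were well above background. The difference was -2.90 ± 0.77 (SE), or -0.89 with normexp background correction, and no fold is given because 2 of the 3 old values were not well above background.

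The third Ms4a4c probe, A_55_P2135980, went the other way on the scaled values. It had 7.30, 7.35 and 7.60 in old samples, against 6.94, 7.15 and 7.27 in young samples, a difference of 0.29 ± 0.13 (SE), or 1.22-fold higher in old samples. Its processed signals, before any scaling, ran from 36618 to 49646 over the 6 arrays, a span of 1.36-fold, and no spot was marked as saturated. Unscaled, they were 44899, 36618 and 39888 in old samples and 41156, 49646 and 42894 in young samples, so the groups overlapped there. The groups overlapped in the deposited values too, at 15.20, 15.20 and 15.42 in old samples against 14.96, 15.16 and 15.28 in young samples. On the scaled values all old samples lay above all young samples, as they did at 32.7% of all probes on the array. A rule that represents each gene by its brightest probe reads Ms4a4c from this probe alone. Of 5429 genes or transcripts with at least 2 probes past the filter on dim probes, 209 (3.85%) likewise had a probe with all old samples lower and another with all old samples higher. Which of the 3 probes measures the Ms4a4c transcript was not tested, because the probe sequences were not used here.

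Ms4a6c (NM_028595), a member known from mouse macrophages and monocytes, had -2.31, -2.02 and -2.65 in old samples, against -0.78, -0.79 and 0.24 in young samples. The groups were apart by more than 1 log2 unit, with old 2 the highest old sample and young 2 the lowest young one. The mean was -2.33 ± 0.31 in old samples and -0.44 ± 0.59 in young samples (SD, n = 3 each), and the difference of -1.88 ± 0.39 (SE) is 3.69-fold lower in old samples. On each of the 6 arrays the signal was well above background, and the SE was the smallest of the 7 probes with a negative difference.

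Ms4a6b (NM_027209), a close relative of Ms4a6c that is known from mouse T cells, did not rise well above background on any of the 6 arrays. Its values were -6.06, -5.97 and -5.81 in old samples, against -4.77, -5.66 and -3.98 in young samples. All old values lay below all young ones, old 3 and young 2 being 0.15 apart, and no fold is given because neither group was measured above background. With normexp its difference of -1.15 became 0.13, so not even its sign was settled.

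Ms4a6d (NM_026835), a macrophage protein of the mouse that binds the complement receptor VSIG4, was well above background on 0 of 3 old arrays and on 3 of 3 young arrays. It had -5.82, -4.17 and -5.99 in old samples, against -4.36, -4.40 and -3.51 in young samples. Old 2 lay above young 1 and young 2, so the groups overlapped. Set against the lowest signal that counts as well above background, or the probe's own value where that was higher, Ms4a6d was at least 1.82-fold lower in old samples on the main scale, but its difference was 0.06 with normexp. Its measured means were -5.33 in old samples and -4.09 in young samples.

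Ms4a7 (NM_001025610), known from resident macrophages of several mouse tissues, was likewise well above background on 0 of 3 old arrays and on 3 of 3 young arrays. It had -4.63, -5.90 and -5.73 in old samples, against -3.85, -4.40 and -2.91 in young samples. Old 1 came within 0.23 of young 2, and the groups did not overlap. By the same bound it was at least 2.21-fold lower in old samples on the main scale, against a difference of -0.05 with normexp, with measured means of -5.42 in old samples and -3.72 in young samples. Among all tested genes or transcripts, 631 were well above background on young arrays only, as Ms4a6d and Ms4a7 were. In bulk samples such as these, fewer cells of a type and less RNA per cell cannot be told apart.

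All 8 probes together had a median difference of -1.79, beside 0.07 over all tested genes and 0.18 over all probes. At 6 probes every old sample lay below every young sample, a pattern found at 8.42% of all probes. One probe showed the reverse order, found at 32.7%, and 1 overlapped. With the brightest probe of each gene, 1 of the 5 tested members, Ms4a6c, passed limma's adjusted p of 0.05, against 8.01% of all tested genes. With every probe tested by itself, 3 of the 7 tested probes passed, against 7.80% of all probes tested. The genes were chosen from this same contrast, so nothing is read from these counts. The 19619 probes that were well above background on no array had a median difference of 0.61, so dim probes in general lay higher in old samples on this scale. The 75th percentile that is subtracted was a signal of 206 to 285 on the old arrays and 277 to 349 on the young arrays.

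Young 3 had the highest value of the young samples at 8 of 8 probes, against 43.4% of all probes and 32.7% of tested genes. Without young 3 the median difference of the 8 probes was -1.40, and the 7 negative differences ran from -2.57 to -0.73. The values of young 1 and young 2 differed from each other most for Ms4a4b, by 1.14. For Ms4a6c they differed by 0.02.

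**Figure D2:**
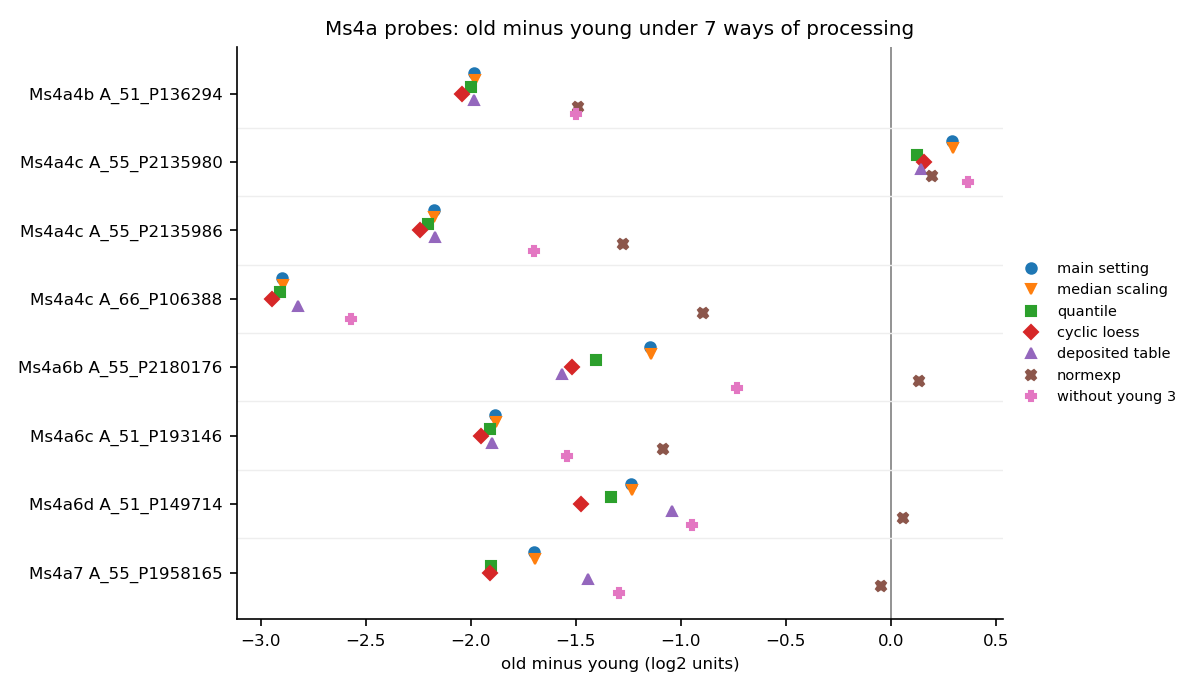
Difference between old and young means in log2 units for each of the 8 Ms4a probes under 7 ways of processing the same arrays, old minus young, so points left of 0 are lower in old samples. The other scalings and the deposited table lie near the main value, leaving out young 3 brings the 7 negative differences closer to 0, and normexp background correction moves Ms4a6b to 0.13, Ms4a6d to 0.06 and Ms4a7 to -0.05.

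A different background correction was tried with normexp, which starts from the median spot signals and adds an offset of 50, so that more than 1 step differs from the main values. All 7 negative differences moved towards 0 or past it. Ms4a6b had a difference of 0.13, Ms4a6d of 0.06 and Ms4a7 of -0.05. The other 4 were -1.49 for Ms4a4b, -1.28 for Ms4a4c probe A_55_P2135986, -1.08 for Ms4a6c and -0.89 for Ms4a4c probe A_66_P106388. In the table of log2 values that the authors deposited, the 7 negative differences ran from -2.82 to -1.04. The opposing Ms4a4c probe ran from 0.13 to 0.37 over the other scalings, normexp, the deposited values and leaving out each sample.

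Profiles over the 6 arrays, each centred on its own mean, were compared by the root mean square (RMS) of their differences. Ms4a4b and the Ms4a4c probe A_55_P2135986 were the nearest of the 28 pairs of Ms4a probes at 0.22. Their genes are neighbours in the cluster and share the 20-base run. The other pairs lay between 0.48 and 1.80, and the farthest was a pair of Ms4a4c probes, A_55_P2135980 and A_66_P106388. Ms4a4b lay at 1.24 from A_55_P2135980 and at 0.97 from A_66_P106388. Ms4a6b and Ms4a6c, the pair with the longer shared run, lay at 0.51, with Ms4a6b not well above background on any array. Whether likeness of profiles goes with the shared runs was not tested. Over all 13545 tested genes with a symbol other than the members, the nearest profile to Ms4a4b was that of Gm8369, at 0.14. It was followed by Klk1, a kallikrein, at 0.22 and by Klre1, a receptor of NK cells, at 0.23.

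Gm8369 is a protein-coding gene of the same cluster, between Ms4a6c and Ms4a6b. It had -3.98, -4.29 and -4.10 in old samples, against -2.88, -2.08 and -1.06 in young samples. It was well above background on 0 old arrays and 3 young arrays, the groups did not overlap, and young 3 was again the highest. Its difference was -2.12, or -0.69 with normexp, and no fold is given because no old value was well above background. It is named for its likeness to a member that was picked for being lower in old samples, so no test is given for it.

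The nearest genes of the other member probes were as follows. For Ms4a4c probe A_55_P2135986 they were Slc11a1, a metal transporter of macrophage phagosomes, at 0.15, Klk1b26 at 0.16 and Gm8369 at 0.18. For Ms4a4c probe A_66_P106388 they were Gm5150 at 0.20 and the C-type lectin receptors Cd302 at 0.21 and Clec10a at 0.25. For Ms4a6c they were Asprv1, a protease, at 0.09, Niban1 at 0.12 and Clec4d, a C-type lectin receptor of myeloid cells, at 0.15. Ms4a6d was nearest to Ap3m2 at 0.16, the chemokine Cxcl10 at 0.23 and the transcription factor Nfatc2 at 0.25. Ms4a7 was nearest to Ifit3b, an interferon-induced gene, at 0.11, Parp3 at 0.14 and Brd8dc at 0.18. The opposing Ms4a4c probe had Mtfr2, Septin3 and Fam234b within 0.03, all 3 of them higher in old samples by 0.25 to 0.29. These likenesses rest on 6 arrays that share 1 slide and the same contrast.

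Along the cluster, the rest of the family and its flanks were read in the same fit. The gene table held 15 other Ms4a symbols, and Tmem176a and Tmem176b, related proteins encoded on chromosome 6, were read with them. Of these 17 genes, 13 had a probe, 4 were tested and 6 had no array with signal well above background at their brightest probe. By limma, 0 of the 4 passed the adjusted threshold and 2 had an unadjusted p under 0.05, with all 4 differences below 0. Normexp called 2 of the 4, and a filter that needs signal on all 6 arrays called 1 of 3.

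Ms4a1, which encodes the B cell antigen CD20, had -0.25, -2.08 and -0.59 in old samples, against 0.86, 0.64 and 1.59 in young samples. The groups did not overlap, old 2 stood lowest, and the difference was -2.0 ± 0.51 (SE, adjusted p = 0.0686). Ms4a3, of granulocyte and monocyte precursors, had 1.49, 0.89 and 1.14 in old samples, against 1.48, 2.44 and 2.94 in young samples. Old 1 was as high as young 1, and the difference was -1.11 ± 0.38 (SE, adjusted p = 0.125). Tmem176a and Tmem176b, known from dendritic cells and macrophages, had differences of -1.33 ± 0.59 (SE, adjusted p = 0.201) and -0.93 ± 0.40 (SE, adjusted p = 0.198), and both overlapped between the groups. Ms4a8a was well above background on 1 young array and no old array, so no fold is given for its difference of -1.61, which was not tested. Ms4a2 had no array with signal well above background.

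**Figure D3:**
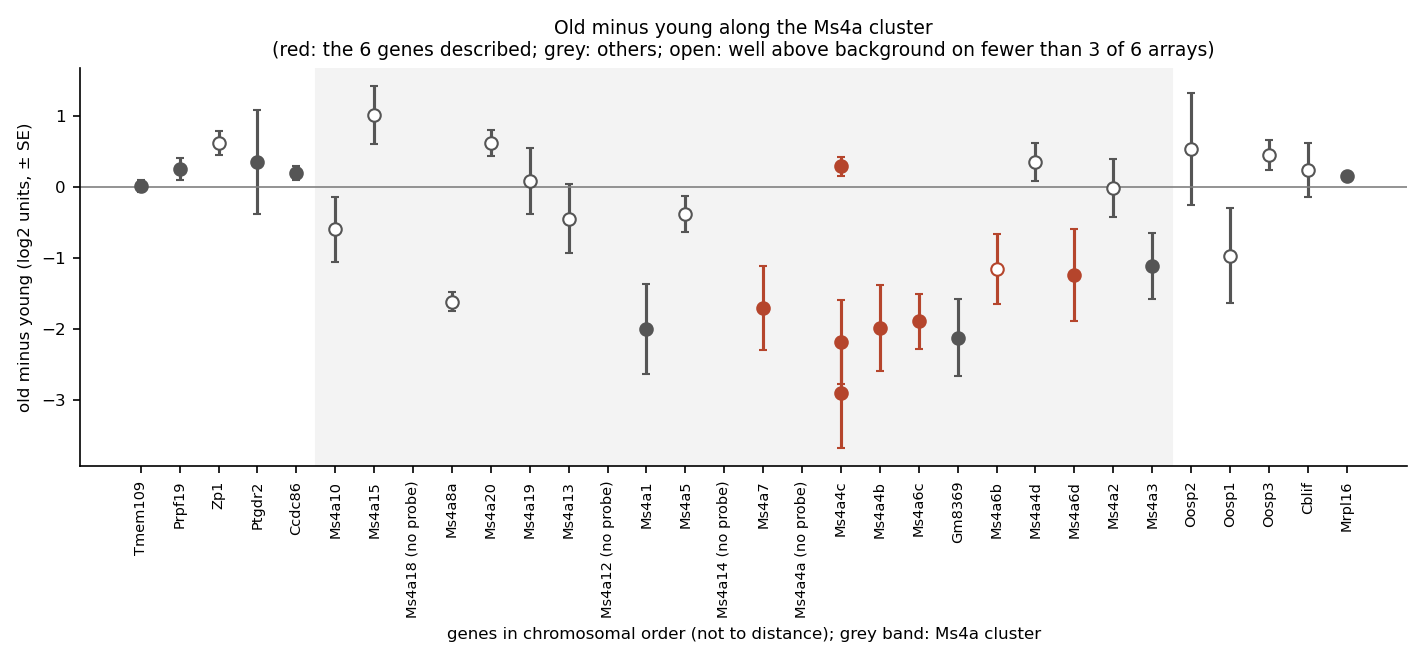
Difference between old and young means in log2 units, old minus young, for the Ms4a genes on chromosome 19, Gm8369 among them and 5 protein-coding genes on each side. Genes stand in chromosomal order without distance, bars are the SE from the replicate SDs, and open points were well above background on fewer than 3 of 6 arrays. The 7 lower points of the described genes, Gm8369, Ms4a1, Ms4a3 and Ms4a8a lie below -1, with Ms4a6b and Ms4a8a as open points. The other Ms4a genes with a probe, all open points, run from -0.59 (Ms4a10) to 1.02 (Ms4a15). On the flanks, tested genes lie between 0.01 and 0.36 and untested ones between -0.96 (Oosp1) and 0.62 (Zp1).

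Genes that flank the cluster showed no call. Of the 5 protein-coding genes on each side, 5 were tested in all and 0 passed the threshold. On one side Tmem109 had a difference of 0.01, Prpf19, a splicing factor, of 0.25, Ptgdr2, a prostaglandin receptor, of 0.36, and Ccdc86 of 0.20. On the other side Mrpl16, a mitochondrial ribosomal protein, had 0.15. None of these 5 had an unadjusted p under 0.05 by limma.

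Among partners of Ms4a proteins and the signalling chain below them, 3 of 7 tested genes fell in old samples and 0 rose, where 4.04% of all tested genes fell and 3.97% rose. The list held 8 genes, and the median difference of the 7 was -1.67. It was chosen with earlier results of these data known, so nothing is read from its count. Syk, the kinase that carries the signal of Fc and C-type lectin receptors, had 1.18, 1.06 and 0.53 in old samples, against 2.48, 2.28 and 3.02 in young samples, and fell by 1.67 ± 0.25 (SE, limma adjusted p = 0.0265). Fcer1g, the gamma chain of Fc receptors, fell by 1.74 ± 0.29 (SE, limma adjusted p = 0.0293). Tyrobp, the adaptor DAP12, fell by 1.84 ± 0.34 (SE, limma adjusted p = 0.0336). All 3 had no overlap between the groups, and young 3 was the highest young sample for each.

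Trem2, a DAP12-coupled receptor of macrophages whose soluble form is linked to the human MS4A locus, had a difference of -1.96 ± 0.55 (SE, adjusted p = 0.0814) without overlap. Fcer1a, the IgE-binding chain that pairs with Ms4a2, had -0.91 ± 0.47 (SE, adjusted p = 0.265), and Lyn, a kinase of the same receptor, had -0.54 ± 0.25 (SE, adjusted p = 0.214). Tnfrsf18, which encodes GITR, the partner of Ms4a4b, had a difference of 0.10 ± 0.21 (SE, adjusted p = 0.797). Its values were -0.77, -0.09 and -0.09 in old samples, against -0.50, -0.51 and -0.22 in young samples, and the groups overlapped. Without young 3 the count of 3 fell to 1, and without old 2, old 3 or young 2 it was 0.

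Marker genes of several blood cell types fell in old samples, where most Ms4a probes were lower. Their lists too were chosen with earlier results of these data known. Of 14 tested monocyte markers, 9 fell in old samples and 0 rose, with a median difference of -1.42 and young 3 the highest young sample for 13. The 9 include a gene that was well above background on young arrays only. With signal needed on all 6 arrays, 8 of 12 monocyte markers fell. Ccr2, the chemokine receptor of inflammatory monocytes, had -2.51, -3.21 and -3.68 in old samples, against -0.80, -1.04 and -0.03 in young samples, and fell by 2.51 ± 0.37 (SE, limma adjusted p = 0.026). Mpeg1, a pore-forming protein of phagocytes, fell by 2.36 ± 0.29 (SE), and Cx3cr1, the fractalkine receptor, fell by 1.98 ± 0.32 (SE). Csf1r, the receptor for the macrophage growth factor, had a difference of -0.41 ± 0.21 (SE, adjusted p = 0.272).

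The summed level of the monocyte markers, on a linear scale in units of the array's 75th percentile, was 38.7 to 51.2 in old samples and 74.5 to 115.6 in young samples. The count of 9 was 6 without old 1, 0 without old 2 or old 3, 5 without young 1, 1 without young 2 and 2 without young 3. Over all 23285 tested genes 1866 passed, a count that was 1 without old 2, 5 without old 3, 63 without young 2, 321 without young 3, 769 without young 1 and 1155 without old 1. The part of monocyte content in the Ms4a differences was not tested.

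Of 16 macrophage markers 9 were tested, 4 were well above background on all 6 arrays, and 2 fell in old samples. Adgre1, the F4/80 antigen, had -2.85, -3.59 and -3.40 in old samples, against -1.73, -1.49 and -0.32 in young samples, and fell by 2.10 ± 0.40 (SE, limma adjusted p = 0.0356). Mrc1, the mannose receptor, was at least 3.22-fold lower in old samples, where it was not well above background. It entered the test through the young arrays alone. With signal needed on all 6 arrays, 1 of 4 macrophage markers fell. Cd163, Timd4 and Mertk, which mark resident macrophages, had no array with signal well above background. Of the 9 tested, 8 had a difference below 0, and the median was -1.22. The count of 2 was 0 without old 2, old 3 or young 2 and 1 on leaving out any other sample. The summed level of the list, 14.0 to 17.8 in old samples and 13 to 13.7 in young samples, went the other way because most of it is Slc40a1. Slc40a1, the iron exporter, had 3.70, 3.71 and 4.05 in old samples, against 3.48, 3.52 and 3.33 in young samples. Its adjusted p was 0.122.

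**Figure D4:**
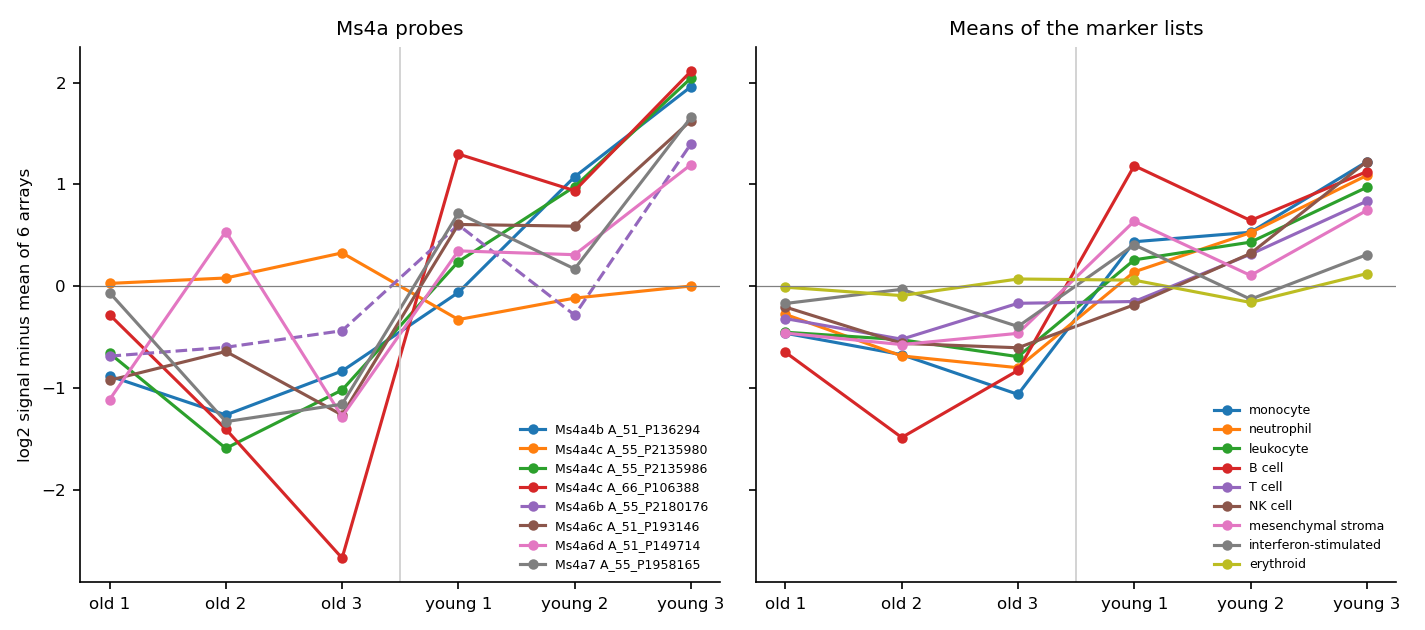
Left, log2 signal of each Ms4a probe minus its mean over the 6 arrays; right, the same for the mean of the genes on the array of 9 marker lists. The 3 old samples stand to the left of the grey line and the 3 young samples to the right, and the dashed line is Ms4a6b, which was not well above background. Young 3 is the highest young sample for all 8 Ms4a probes and for 7 of the 9 list means, the B cell and interferon-stimulated means excepted, while the erythroid mean hardly varies.

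Some granulocyte and B cell markers fell in old samples as well. Of 15 tested leukocyte genes 9 fell, with a median difference of -1.24 and a summed level of 88.6 to 102.7 in old samples against 158.1 to 274.6 in young samples. Ptprc, which encodes CD45, fell by 1.28 ± 0.25 (SE, limma adjusted p = 0.036). Of 14 neutrophil markers 5 fell, with a summed level of 1338 to 1656 in old samples and 1972 to 2961 in young samples. Most of that sum came from S100a8 and S100a9, which did not pass (limma adjusted p = 0.0693 and 0.101). Of 10 tested B cell markers 8 fell, with a median difference of -2.38 and a summed level of 7.34 to 13.2 in old samples against 36.6 to 55.6 in young samples. Of 8 tested mast cell and basophil markers 2 fell and 5 had a difference below 0. The summed level was 19.2 to 24.0 in old samples and 27.4 to 39.1 in young samples. Most of it in old samples came from Kit, which had a difference of 0.15. Without old 2, old 3 or young 2 the counts of all 4 lists were 0. Without young 3 they were 3 for leukocyte, 1 for neutrophil, 2 for B cell and 0 for mast cell and basophil markers.

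T and NK cells are the cells from which Ms4a4b is best known. Of 13 tested T cell markers 1 fell, 2 rose (Cd3e and Cd8a), 9 had a difference below 0, and the median was -0.80. The one that fell, Tcf7, was well above background on young arrays only. With signal needed on all 6 arrays 2 rose and 0 fell. The summed level was 21.3 to 24.8 in old samples and 18.6 to 23.9 in young samples, most of it from Cd4 and Cd3e. Cd3e, a chain of the T cell receptor complex, rose by 0.80 ± 0.13 (SE, limma adjusted p = 0.0276), while Cd8a was at 0.61 with its brightest probe and at -0.35 with the mean over its probes. The chains Cd3d, with -1.53 ± 0.42 (SE), and Cd3g, with -1.08 ± 0.53 (SE), had differences of the other sign and did not pass. None of the T cell markers passed without old 2, old 3, young 2 or young 3, and 1 passed with quantile scaling or in the deposited values. Without young 1, 3 passed, of which 3 fell and 0 rose. Of 9 tested NK cell markers 3 fell, among them Klre1, with a median difference of -0.59 and a summed level of 9.15 to 9.27 in old samples and 9.23 to 15.2 in young samples. The count of 3 was 1 with normexp, 1 with signal needed on all 6 arrays and 0 without old 1, old 2, old 3 or young 2. Klrb1c and Klre1, which are among the 3, were well above background on young arrays only. Ncr1, which defines NK cells, was well above background on 1 young array and on no old array.

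Markers of the labelled cell type were measured in part. Of 14 mesenchymal stroma markers 6 were well above background on every array, among them the leptin receptor Lepr, and 5 had no array with signal well above background, namely the growth factor receptors Pdgfra and Pdgfrb and the transcription factors Prrx1, Twist1 and Foxc1. Of the 8 tested, 3 fell in old samples, among them the collagen gene Col1a1, which was at least 66.9-fold lower there, and 1 rose, which was Lepr. Col1a1 was well above background on young arrays only. With signal needed on all 6 arrays, 2 of 6 stroma markers fell and 1 rose. The median difference was -1.98 and 6 of the 8 were below 0. The summed level, most of it from Lepr in old samples, was 35.3 to 42.5 in old samples and 25.4 to 38.0 in young samples. No stroma marker passed without old 2, old 3 or young 3. By limma 0 of 9 tested erythroid markers passed and 0 had an unadjusted p under 0.05, with a median difference of -0.02. With every erythroid probe tested by itself 2 passed, and with the mean over the probes of a gene 1 passed. Of 14 tested interferon-stimulated genes 1 fell, Ifit3, which fell by 2.0 ± 0.37 (SE, limma adjusted p = 0.0336), and the median difference was -0.26. Ifit3 lost its call with normexp, and on leaving out any one sample no gene of that list passed. The part of these cell types, or of the dimmer old arrays, in the Ms4a differences was not tested.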

How the data were processed

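Total RNA of 3 old and 3 young samples was measured on 6 arrays, with groups and replicate numbers from the sample titles. The scanner intensities are as the authors deposited them, background-subtracted within each array by Feature Extraction 10.7.3.1 per the file headers (10.5.1.1 per the submitters' processing notes), on a design annotated with mm9. The authors also deposited log2 values for 52095 probes, which followed the log2 intensities of the same arrays at r = 0.9986 to 0.9995. The scaling behind that table is not given in the sources that were used.

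Control and outlier spots were left out and repeat spots averaged. Values are log2 processed intensities minus the 75th percentile of each array. Probes were named by transcript accession through RefSeq's gene table (GRCm38.p6), and 26407 of 55681 (47.4%) got a symbol. A gene was represented by its brightest probe and entered the test with signal well above background on 3 or more of the 6 arrays. The contrast of old minus young was fitted in R 4.3.3 with limma 3.58.1, using lmFit and eBayes with age as the single term. Benjamini-Hochberg adjustment ran over all 23285 tested genes, at 0.05. The fit was tested on simulated data. An SE given with an adjusted p, or for a marker gene, is limma's. An SE given for a member probe comes from the replicate SDs. The number of arrays limits the precision.

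The members and the 12 gene lists were chosen with earlier results of these data known. The text names every member and probe, the other Ms4a genes, the 5 protein-coding genes on each side of the cluster and the 3 nearest profiles of each tested member probe. From each list it names some of the 3 tested genes with the smallest p and of the defining markers. Cd3d, Cd3g, Lyn, Tnfrsf18, Trem2, Slc40a1, Cd163, Timd4, Mertk, Cd4, Cx3cr1, Kit, S100a8, S100a9, Prrx1, Twist1 and Foxc1 were named after their values were seen. Background correction (normexp with an offset of 50, run on the median signals because the files hold no mean signal), scaling, the deposited values, the filter, the choice of probe, the replicate number as a block and leaving out each sample were tried as alternatives.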

Additional observations from a re-analysis of the deposited data

How the results depend on the processing

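Under 3 other scalings and in the deposited values each member difference kept its sign, though the opposing Ms4a4c probe shrank (0.13 with quantile scaling), and the median over the 8 probes ran from -1.99 to -1.40 on leaving out each sample. With normexp that median was -0.47, and Ms4a6b (0.13) and Ms4a6d (0.059) changed sign. The cause was not tested. Of the calls over all genes, 1866 (925 higher and 941 lower in old samples), the count was 2881 with normexp (1783 higher and 1098 lower), 1532 in the deposited values (597 higher and 935 lower), 2109 with signal needed on all 6 arrays (1263 higher and 846 lower) and 1 to 1155 on leaving out each sample. It was 647 higher of 1547 with cyclic loess. By limma it was 0 without the filter on dim probes, where 37163 genes were tested and 11662 had an unadjusted p under 0.05. With the replicate number as a block it was 0, with 5561 under that unadjusted p. Same-numbered samples did not deviate together (r = -0.03, 0.02 and -0.01 across genes), so the numbers were not taken as pairs. Among the other Ms4a genes, 0 calls became 2 with normexp, 1 with signal needed on all 6 arrays and 0 to 1 on leaving out each sample. Neutrophil calls were 5, but 11 with normexp and 8 with signal needed on all 6 arrays. Cd8a, higher in old samples by 0.61 with its brightest probe, was at -0.35 with the mean over its probes. Of 40 named genes with a call, 31 kept it with normexp, 34 with quantile scaling, 34 with cyclic loess, 36 in the deposited values, 15 without young 3 and 0 without old 2 or old 3. Dim signal limits Ms4a6b, Ms4a6d and Ms4a7, which were not well above background in old samples.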
